A study of Saccharomyces cerevisiae with 12 samples.

Results

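The genes described are the galactose (GAL) genes GAL1, GAL10, GAL7, GAL2, GAL3, GAL4 and GAL80 and the sucrose gene SUC2 of Saccharomyces cerevisiae, 8 of the 6002 coding genes considered. Every listed nucleosome from 1000 bp before the start codon to the stop codon was taken by its sacCer3 coordinate, which includes the promoter that GAL1 and GAL10 share. That gave 125, 125 and 122 entries in the 3 Ioc3 lists and 120, 123 and 125 in the 3 wild-type lists. A consensus over all lists placed 119 nucleosome centres (dyads) in these windows, of 72740 in the genome, and 112 of them had an entry in every list. Windows of neighbouring genes overlap, and 10 dyads count for 2 of the genes.

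The assay was MNase-seq, in which micrococcal nuclease digests linker DNA and the protected fragments are sequenced. All groups were BY4741 cells, a laboratory strain, grown in rich glucose medium (YPD) to mid-log phase and digested as spheroplasts over a range of nuclease concentrations. The groups were a knockout of IOC3 (Ioc3-KO), the double substitutions Ioc3-R739E/R742E and Ioc3-Q251K/D252K, and 3 wild-type groups (WT1, WT2, WT3). Each group had 2 biological replicates, 12 samples in all, and the authors pooled each pair into 1 list, so each Ioc3 genotype is 1 pool and the wild type is 3 pools. No label pairs a wild-type group with a given Ioc3 genotype. Galactose-grown cells were not analysed here, so every value below belongs to growth in glucose.

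Galactose genes are switched by a short chain of regulators. Gal4 binds DNA upstream of its targets, Gal80 covers the activation surface of Gal4 while galactose is absent, and Gal3 relieves Gal80 when galactose enters the cell. In glucose these genes are also held down by the repressor Mig1 and the Cyc8-Tup1 corepressor, and SUC2, which encodes the secreted sucrose-cleaving enzyme invertase, is a textbook target of the same repression. The GAL1-GAL10 and SUC2 promoters are long-standing models of promoter nucleosomes that are lost on induction. Ioc3 is the accessory subunit of ISW1a, an ATP-dependent complex of the ISWI family that moves and spaces nucleosomes.

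In IOC3 itself (chromosome VI, 169922-172285) the Ioc3-KO pool listed 5 nucleosomes with 825 reads, with none between 672 and 2360 bp past the start codon. The Ioc3-R739E/R742E and Ioc3-Q251K/D252K pools listed 16 each with 2355 and 2228 reads, and WT1, WT2 and WT3 listed 16, 16 and 18 with 2392, 2426 and 2570 reads. Assigned reads per list lay between 10282804 and 10350515, with a median of 133 to 139 per nucleosome. Over the genome, median peak height (the height of the authors' track at the summit, on a scale that is not stated) was 1.34 in Ioc3-KO, 1.40 in Ioc3-R739E/R742E, 1.40 in Ioc3-Q251K/D252K and 1.44, 1.47 and 1.45 in the wild-type pools. Heights were therefore compared after division by the median of the pool. Where 3 values follow for the Ioc3 pools, the knockout is given before Ioc3-R739E/R742E and Ioc3-Q251K/D252K, and 3 wild-type values stand for WT1, WT2 and WT3. Positions are bp from the first base of the start codon, negative upstream.

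Few nucleosomes of the 8 genes differed in glucose between the Ioc3 pools and wild type. The nucleosome just upstream of the SUC2 start codon was higher in the Ioc3 pools, and so was a very weak entry in the GAL2 promoter. A nucleosome inside GAL2 lay 27.0 bp further upstream in Ioc3-KO. No other dyad of the 8 genes passed the test in any comparison with wild type.

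In position, 1 of the 112 matched dyads was called in Ioc3-KO at an adjusted p under 0.05 (limma), beside 1.28% of all 67653 matched dyads. None of the 112 was called in Ioc3-R739E/R742E or Ioc3-Q251K/D252K, where the share over all dyads was 0% in both, or for the 3 Ioc3 pools together (0.185% of all). At an unadjusted p under 0.05, 30, 10 and 13 of the 112 passed in the 3 genotypes, against 18.2%, 8.6% and 8.84% of all dyads, and 15 passed for the 3 together, against 12.1%. Ioc3-KO was the genotype with the most such dyads among these genes, 26.8% of them, as it was over the genome.

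In peak height, 0 dyads were called in Ioc3-KO (0.166% of all) and 0 in Ioc3-R739E/R742E (0.0163% of all). In Ioc3-Q251K/D252K 2 were called (0.773% of all), SUC2 -141 and GAL2 -368, and both were also called for the 3 pools together (0.35% of all). At an unadjusted p under 0.05 the counts were 20, 5 and 10 in the 3 genotypes, against 17%, 6.49% and 12.5% of all dyads, and 23 for the 3 together, against 16.8%. In fuzziness, the standard deviation of read positions around a nucleosome, none was called, beside 0.00148%, 0% and 0.0103% of all dyads in the 3 genotypes and 0% for the 3 together. At an unadjusted p under 0.05 the fuzziness counts were 16, 4 and 3, against 15.5%, 7.17% and 6.55% of all dyads, and 12 for the 3 together, against 11.8%. The p-values of single genotypes rest on the spread between the 3 wild-type pools, with 2 residual degrees of freedom. By limma (eBayes) that spread is drawn towards the spread over all dyads. These p-values carry no spread between cultures of one Ioc3 genotype. The fit of the 3 Ioc3 pools together treats 3 genotypes as 1 group, so its spread includes differences between them. The height share of all dyads in Ioc3-Q251K/D252K includes a raised stretch around ADR1, described below.

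GAL1 (YBR020W, chromosome II, 279021-280607, plus strand) encodes galactokinase, the first enzyme of galactose breakdown, and GAL10 (YBR019C, chromosome II, 276253-278352, minus strand) encodes the UDP-galactose epimerase of the same pathway. Their start codons are 668 bp apart and face away from each other. In every pool 4 nucleosomes occupied this space, centred at -553, -393, -230 and -68 from the GAL1 start codon. The outer nucleosome on the GAL10 side, at -553 (116 bp upstream of GAL10), had peak heights of 2.55, 1.64 and 2.15 in the Ioc3 pools and 2.01, 1.76 and 1.85 in the wild-type pools. Its log2 difference in Ioc3-KO was 0.54 (SE 0.15, adjusted p = 0.145, limma), so Ioc3-KO was highest, Ioc3-R739E/R742E lowest, and the groups overlapped.

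The entry at -393 lies in the middle of the promoter, the region known to hold its Gal4 sites, and was weak in every pool, higher than 2.29% of all dyads in wild type. Its heights were 0.393, 0.365 and 0.530 in the Ioc3 pools and 0.384, 0.489 and 0.266 in the wild-type pools, and its summits were at -393, -399 and -392 in the Ioc3 pools and at -387, -394 and -391 in the wild-type pools. Both quantities overlapped between the groups. Leaving out the lowest 10% of entries by height removed it, and a gap of 328, 326 and 321 bp between summits then opened in the Ioc3 pools, against 324, 321 and 318 bp in the wild-type pools.

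On the GAL1 side, the nucleosome at -230 had heights of 2.41, 2.18 and 2.81 in the Ioc3 pools and 2.32, 1.84 and 1.94 in the wild-type pools. Its difference over all 3 Ioc3 pools was 0.34 on the log2 scale (adjusted p = 0.219, limma), and Ioc3-R739E/R742E lay within the wild-type range. The nucleosome over the GAL1 start region, at -68, had heights of 1.75, 1.45 and 1.58 in the Ioc3 pools and 1.30, 1.00 and 1.16 in the wild-type pools. The reads behind them were 119, 98 and 113 in the Ioc3 pools and 85, 74 and 80 in the wild-type pools. All 3 Ioc3 pools were above all 3 wild-type pools. The means were 1.59 ± 0.15 (SD, n = 3 pools, 1 per Ioc3 genotype) and 1.15 ± 0.15 (SD, n = 3 wild-type pools). The log2 difference was 0.53 (SE 0.13) with an adjusted p of 0.0933 (limma), which missed the threshold. In Ioc3-KO alone it was 0.71 (adjusted p = 0.115, limma). The difference over the 3 pools passed in 1 of 8 other settings, with the lowest 25% of dyads by height left out (adjusted p = 0.0264, limma). That setting refits fewer dyads, and why the adjusted p fell was not tested.

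**Figure D1:**
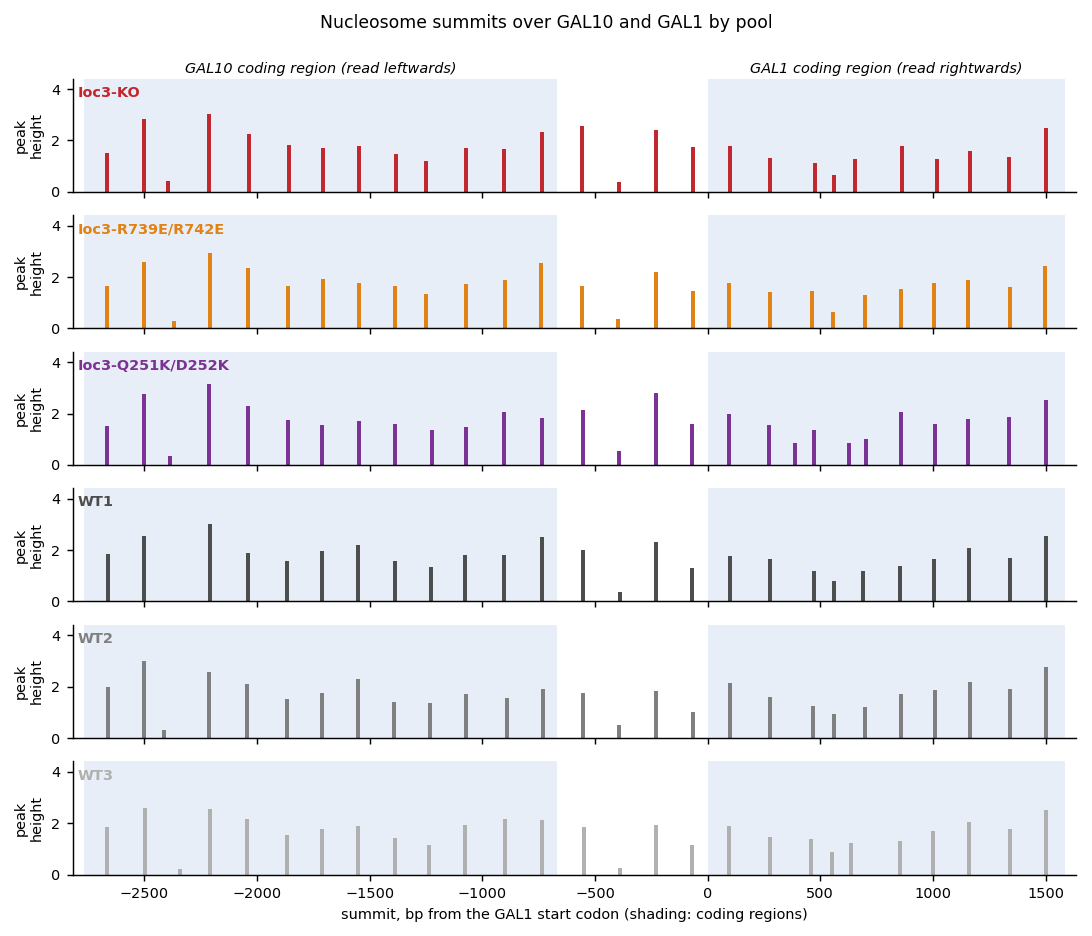
Nucleosomes over GAL1, GAL10 and the promoter between them, with 1 row per pool and the Ioc3 pools above the wild-type pools. The horizontal axis is distance from the GAL1 start codon in bp, and each stick is 1 listed nucleosome with its peak height. The 4 promoter nucleosomes stand at the same places in all 6 rows, and the short stick near -393 bp is the weak one.

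Inside the coding regions the first nucleosomes were placed alike. The first of GAL1 had its summit at 100, 95 and 93 bp in the Ioc3 pools and at 98, 99 and 97 bp in the wild-type pools. The first of GAL10 was at 68, 69 and 66 bp in the Ioc3 pools and at 65, 64 and 65 bp in the wild-type pools. GAL1 carried 9 matched nucleosomes at a mean spacing between 175 and 176 bp in every pool, with medians of 168.5 to 179 bp. GAL10 carried 12 matched nucleosomes, also at a mean between 175 and 176 bp. That mean skips an unmatched weak entry at 1722 bp and so includes an interval of 288 to 292 bp. The median spacing of GAL10 was 162 to 167 bp, so the equal means do not show equal spacing. A middle nucleosome of GAL1 varied widely between wild-type pools. Its summit was at 656, 700 and 701 bp in the Ioc3 pools and at 691, 699 and 637 bp in the wild-type pools, so a wild-type pool stood as far off as Ioc3-KO.

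Near the 3′ end of GAL10 a weak entry at 1722 bp had heights of 0.426, 0.277 and 0.345 in the Ioc3 pools, was missing from WT1, and had 0.293 and 0.219 in WT2 and WT3. It lies between strong nucleosomes at 1542 and 1831 bp. The strong neighbour at 1542 bp had heights of 3.05, 2.94 and 3.13 in the Ioc3 pools and 3.02, 2.58 and 2.54 in the wild-type pools. The summits of the one at 1831 bp lay between 1830 and 1832 bp in all 6 pools. GAL10 thus has a stretch of low signal near its end in both groups.

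GAL7 (YBR018C, chromosome II, 274427-275527, minus strand), which lies behind GAL10, encodes the uridylyltransferase between the kinase and the epimerase steps. Its promoter nucleosome at -65 had heights of 2.85, 2.64 and 2.90 in the Ioc3 pools and 2.72, 1.91 and 2.34 in the wild-type pools, and WT1 reached into the Ioc3 range. The first coding nucleosomes lay further downstream in Ioc3-KO. The first had its summit at 126, 117 and 118 bp in the Ioc3 pools and at 115, 111 and 110 bp in the wild-type pools, 14.0 bp downstream in Ioc3-KO (adjusted p = 0.171, limma). The next was at 287, 281 and 279 bp in the Ioc3 pools and at 276, 277 and 275 bp in the wild-type pools, 11.0 bp downstream in Ioc3-KO (adjusted p = 0.129, limma). Neither shift passed the test.

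The second part of GAL7 had a different arrangement of entries in Ioc3-KO. The nucleosome at 623 bp was lower in all 3 Ioc3 pools, with heights of 1.17, 1.24 and 1.20, than in the wild-type pools, with 1.54, 1.80 and 1.62. The log2 difference was -0.39 (SE 0.10, adjusted p = 0.104, limma), so the groups did not overlap and the test was missed. From 700 bp to the stop codon Ioc3-KO listed 3 nucleosomes, at 759, 841 and 932 bp, where the other pools listed 2. These were at 779 and 1010 bp in Ioc3-R739E/R742E, at 767 and 1009 bp in Ioc3-Q251K/D252K, and at 811 and 1001, 812 and 1004, and 820 and 1007 bp in the wild-type pools. The first of them thus differed from wild type by -35.3 bp in Ioc3-R739E/R742E and -47.3 bp in Ioc3-Q251K/D252K, and neither shift was called. The entry of Ioc3-KO matched to the wild-type one, at 841 bp, had a height of 0.918, against 1.64, 1.59 and 1.72 in the wild-type pools (log2 difference -0.75, SE 0.14, adjusted p = 0.0692, limma). It passed in 4 of 8 other settings, with adjusted p between 0.00461 and 0.067 (limma). Summed over the stretch the reads were 401, 351 and 344 in the Ioc3 pools and 389, 397 and 398 in the wild-type pools. Ioc3-KO therefore held the same reads over more entries there, and the lower height is that of 1 of its 3 entries.

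GAL2 (YLR081W, chromosome XII, 290212-291936, plus strand) encodes the galactose permease of the plasma membrane, close in sequence to the hexose transporters, so reads can be shared with those genes. Its promoter held a very weak entry. The entry at -368 had heights of 0.286, 0.214 and 0.269 in the Ioc3 pools and 0.128, 0.167 and 0.160 in the wild-type pools, higher than 0.763% of all dyads in wild type. Behind them stood 22, 22 and 26 reads in the Ioc3 pools and 14, 16 and 15 reads in the wild-type pools. All Ioc3 pools were above all wild-type pools, at this very low level. The log2 difference was 0.82 over the 3 Ioc3 pools (SE 0.14, adjusted p = 0.0396) and 0.88 in Ioc3-Q251K/D252K alone (SE 0.17, adjusted p = 0.0486, limma). In Ioc3-KO it was 1.02 with an adjusted p of 0.0523 (limma).

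Around -368 the pools differed in how many weak entries were listed, and whether this accounts for the difference was not tested. WT2 and WT3 listed a second weak entry nearby, at -448 with 10 reads and at -462 with 29 reads. Over the whole stretch from -500 to -300 bp the reads were 22, 22 and 26 in the Ioc3 pools and 14, 26 and 44 in the wild-type pools, so the groups overlapped. The call was also lost without division by the pool median (adjusted p = 0.0766 over the 3 pools and 0.0717 in Ioc3-Q251K/D252K, limma), and without any 1 wild-type pool the adjusted p over the 3 pools was 0.0514 to 0.117 (limma). The dyad at -368 was called over the 3 pools in 3 of 7 other settings, in Ioc3-Q251K/D252K in 6 and in Ioc3-KO in 5. The strong neighbour at -220 had heights of 2.39, 1.72 and 2.15 in the Ioc3 pools and 2.05, 2.2 and 2.54 in the wild-type pools, with no consistent side.

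**Figure D2:**
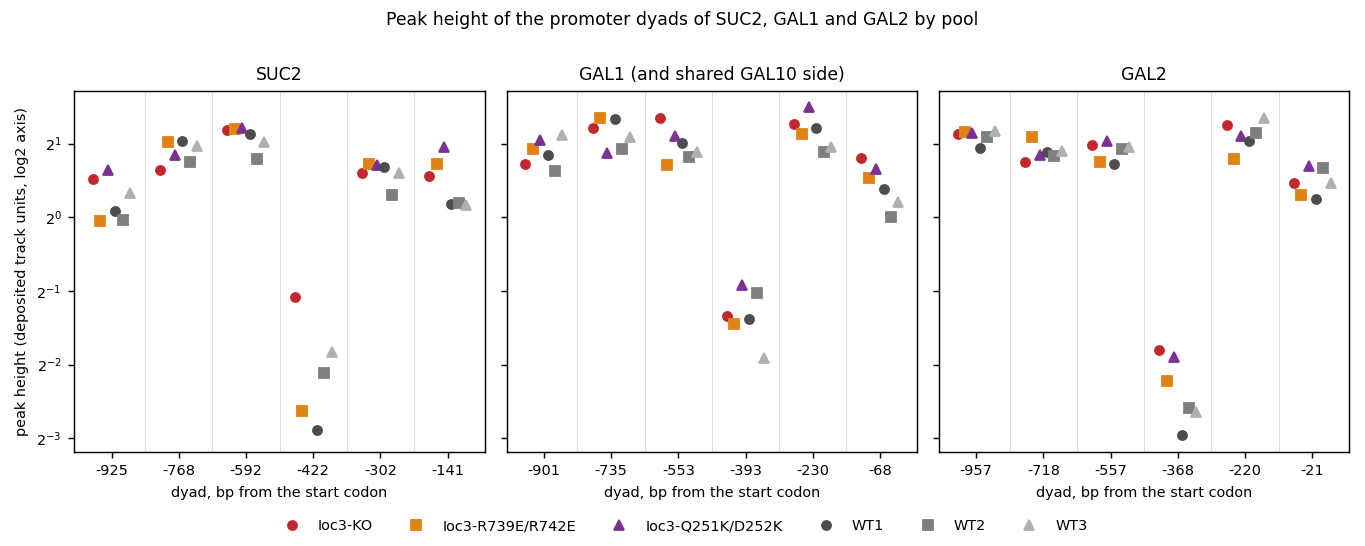
Peak height (authors' track, unstated scale, log2 axis) of each promoter dyad of SUC2, GAL1 and GAL2 by its distance from the start codon in bp, with 1 point per pool and the Ioc3 pools listed first. At SUC2 -141 the 3 Ioc3 pools lie between 1.48 and 1.94 and the wild-type pools between 1.12 and 1.15, and the GAL2 entry at -368, between 0.128 and 0.286, lies below the other GAL2 dyads shown in every pool.

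Several coding nucleosomes of GAL2 were offset in Ioc3-KO. The nucleosome at 140 bp had summits at 161, 134 and 135 bp in the Ioc3 pools and at 136, 143 and 139 bp in the wild-type pools. The next, at 317 bp, was at 340, 312 and 321 bp in the Ioc3 pools and at 313, 311 and 315 bp in the wild-type pools, 27.0 bp downstream in Ioc3-KO (SE 2.36, adjusted p = 0.0647, limma). Both substitution pools stood near the wild-type positions, and neither Ioc3-KO shift passed. The nucleosome at 801 bp was called. Its summits were at 777, 812 and 795 bp in the Ioc3 pools and at 804 bp in each of WT1, WT2 and WT3 (SD 0).

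The difference at 801 bp in Ioc3-KO was -27.0 bp (SE 1.46, adjusted p = 0.0375, limma), towards the start codon. The wild-type summits had the smallest spread that 3 pools can have. The SE at this dyad therefore comes from the spread that limma estimated over all dyads. Without any 1 wild-type pool the difference stayed at -27.0 bp and the call was lost. That fit has 1 residual degree of freedom, so it cannot show whether the call depends on a single pool. With mean read position in place of the summit the difference was -31.8 bp (adjusted p = 0.0574, limma), and with a matching limit of 50 bp the adjusted p was 0.0727 (limma). Heights there were 1.18, 1.38 and 1.15 in the Ioc3 pools and 1.41, 1.83 and 1.77 in the wild-type pools. After division by the pool median Ioc3-R739E/R742E and WT1 were nearly equal (log2 -0.10 and -0.11), so the groups overlapped.

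GAL3 (YDR009W, chromosome IV, 463434-464996, plus strand) encodes the galactose sensor that releases Gal80, a relative of galactokinase. The promoter entry at -170 had summits at -169, -174 and -164 in the Ioc3 pools and at -213, -163 and -214 in the wild-type pools, so 2 wild-type pools stood apart from the other 4. The nucleosome before the start codon was at -13, -36 and -44 in the Ioc3 pools and at -46, -41 and -50 in the wild-type pools (32.7 bp downstream in Ioc3-KO, adjusted p = 0.11, limma). Inside the gene, the nucleosome at 286 bp lay at 280, 279 and 280 bp in the Ioc3 pools and at 291, 293 and 294 bp in the wild-type pools. The 3 Ioc3 pools shared this shift of -13.0 bp (SE 1.43), no pool of one group reached the other, and the adjusted p was 0.0731 (limma), short of the threshold. Its heights were 1.20, 1.31 and 1.30 in the Ioc3 pools and 1.69, 1.72 and 1.54 in the wild-type pools, again without overlap.

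GAL4 (YPL248C, chromosome XVI, 79711-82356, minus strand) encodes the activator itself. Its first nucleosome was at 35, 34 and 36 bp in the Ioc3 pools and at 38, 32 and 32 bp in the wild-type pools. The gene held 16 matched nucleosomes with a mean spacing between 169 and 170 bp in every pool. The nucleosome at 369 bp was among the highest in the genome, higher than 98.9% of all dyads in wild type, with heights of 2.40, 2.74 and 2.91 in the Ioc3 pools and 3.09, 3.05 and 2.84 in the wild-type pools. Reads per kb of coding region were 1016, 996 and 997 in the Ioc3 pools and 1094, 1080 and 1079 in the wild-type pools. These did not overlap, and the log2 difference of -0.09 did not pass (adjusted p = 0.368, edgeR).

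GAL80 (YML051W, chromosome XIII, 171594-172901, plus strand) encodes the inhibitor of Gal4. The nucleosome that covers its start codon was at -28, -26 and -29 in the Ioc3 pools and at -28, -29 and -28 in the wild-type pools. A weak promoter entry at -187 had heights of 0.221, 0.287 and 0.230 in the Ioc3 pools and 0.113, 0.229 and 0.223 in the wild-type pools. The entry at 624 bp took either of a pair of places in both groups, at 581, 626 and 583 bp in the Ioc3 pools and at 634, 595 and 633 bp in the wild-type pools. No position, fuzziness or height of GAL80 was called.

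SUC2 (YIL162W, chromosome IX, 37385-38983, plus strand) gave the clearest difference of the set. The nucleosome centred 141 bp upstream of its start codon had peak heights of 1.48, 1.64 and 1.94 in the Ioc3 pools and 1.13, 1.15 and 1.12 in the wild-type pools. The reads assigned to it were 122, 129 and 143 in the Ioc3 pools and 88, 88 and 84 in the wild-type pools. All Ioc3 pools were above all wild-type pools, and the wild-type pools were nearly equal. The means were 1.69 ± 0.23 (SD, n = 3 pools, 1 per Ioc3 genotype) and 1.13 ± 0.013 (SD, n = 3 wild-type pools). In wild type the nucleosome at -141 was low, higher than 20% of all dyads.

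The log2 difference at SUC2 -141 was 0.63 over the 3 Ioc3 pools (SE 0.11, adjusted p = 0.0418, limma). In Ioc3-Q251K/D252K it was 0.82 (SE 0.14, adjusted p = 0.0345, limma), in Ioc3-R739E/R742E 0.58 (adjusted p = 0.469, limma) and in Ioc3-KO 0.48 (adjusted p = 0.156, limma). Only Ioc3-Q251K/D252K was called by itself, in 7 of 8 other settings too, and the differences between the genotypes were not called. The SE at this dyad was the same for each single genotype. The adjusted p also depends on how many other dyads of the genome differed in that pool. The adjusted p-values therefore do not rank the genotypes at SUC2. Its position did not move with its height: summits were at -141, -140 and -140 in the Ioc3 pools and at -142, -143 and -142 in the wild-type pools. Without division by the pool median the adjusted p was 0.0826 over the 3 pools and 0.0512 in Ioc3-Q251K/D252K, and over the 3 pools it was 0.129 without WT2 and 0.147 without WT3 (limma).

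The stretch from the SUC2 start codon back to the neighbouring coding region is 132 bp. The dyad at -141 and those further upstream are thus centred in or beyond that coding region. Other nucleosomes in the 1000 bp before SUC2 differed less. The one at -592 had heights of 2.28, 2.30 and 2.31 in the Ioc3 pools and 2.19, 1.73 and 2.03 in the wild-type pools, without overlap (log2 difference 0.28, adjusted p = 0.241, limma). The one at -302 had 1.52, 1.64 and 1.64 in the Ioc3 pools and 1.60, 1.24 and 1.51 in the wild-type pools. These heights overlapped, and after division by the pool median they did not (log2 difference 0.21, adjusted p = 0.382, limma). Between them a weak entry at -422 had 0.473 and 0.162 in Ioc3-KO and Ioc3-R739E/R742E, was missing from Ioc3-Q251K/D252K, and had 0.135, 0.231 and 0.282 in the wild-type pools. Summed over the 1000 bp before the start codon the reads were 733, 737 and 745 in the Ioc3 pools and 687, 589 and 680 in the wild-type pools. These sums did not overlap either, and their log2 difference of 0.13 (SE 0.06) was not called (adjusted p = 0.434, edgeR).

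**Figure D3:**
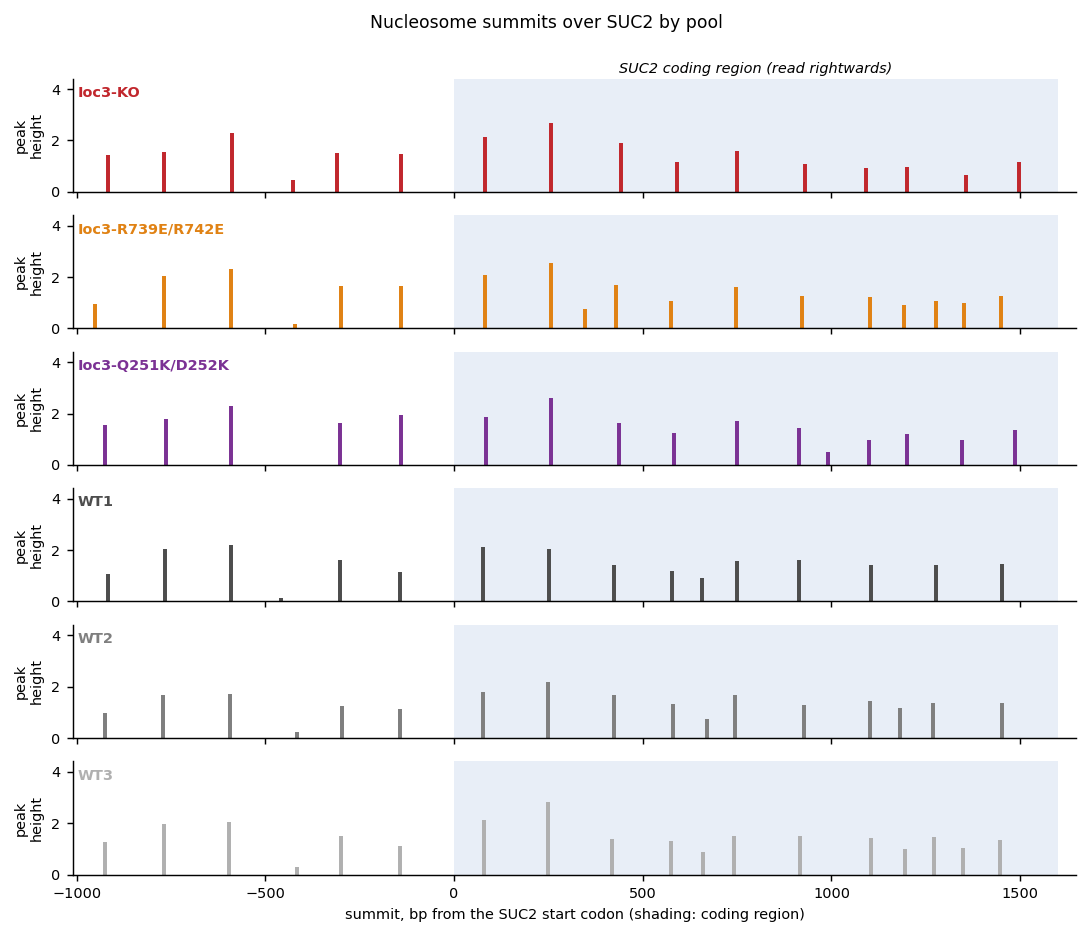
Nucleosomes over SUC2 and the 1000 bp before it, with 1 row per pool and the Ioc3 pools above the wild-type pools; each stick is 1 listed nucleosome, placed by distance from the start codon in bp and as tall as its peak height. The stick at -141 bp reaches 1.48 to 1.94 in the Ioc3 rows and 1.12 to 1.15 in the wild-type rows, and the second part of the coding region is irregular in all 6 rows.

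Along the SUC2 coding region the first nucleosomes lay slightly downstream in the Ioc3 pools. The first was at 81, 81 and 84 bp in the Ioc3 pools and at 77, 78 and 80 bp in the wild-type pools. The next was at 258, 256 and 258 bp in the Ioc3 pools and at 250.3 ± 1.53 bp in the wild-type pools (SD, n = 3), 7 bp downstream over the 3 Ioc3 pools (adjusted p = 0.284, limma). The one after was at 442, 428 and 438 bp in the Ioc3 pools and at 425, 424 and 418 bp in the wild-type pools. No shift of these neighbouring nucleosomes passed the test. From 900 bp on the entries were irregular, numbering 5, 6 and 6 in the Ioc3 pools and 4, 5 and 6 in the wild-type pools.

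Reads over that irregular stretch of SUC2 were 573, 804 and 750 in the Ioc3 pools and 628, 783 and 939 in the wild-type pools. The nucleosome at 1101 bp was lower in all Ioc3 pools, with heights of 0.936, 1.23 and 0.959, than in the wild-type pools, with 1.41, 1.44 and 1.41 (log2 difference -0.39, adjusted p = 0.140, limma). The nucleosome at 1453 bp was at 1497, 1450 and 1486 bp in the Ioc3 pools and at 1453, 1451 and 1446 bp in the wild-type pools. Its shift in Ioc3-KO was 47.0 bp downstream (SE 3.64, adjusted p = 0.0560, limma) and in Ioc3-Q251K/D252K 36.0 bp (adjusted p = 0.174, limma), both short of the threshold.

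**Figure D4:**
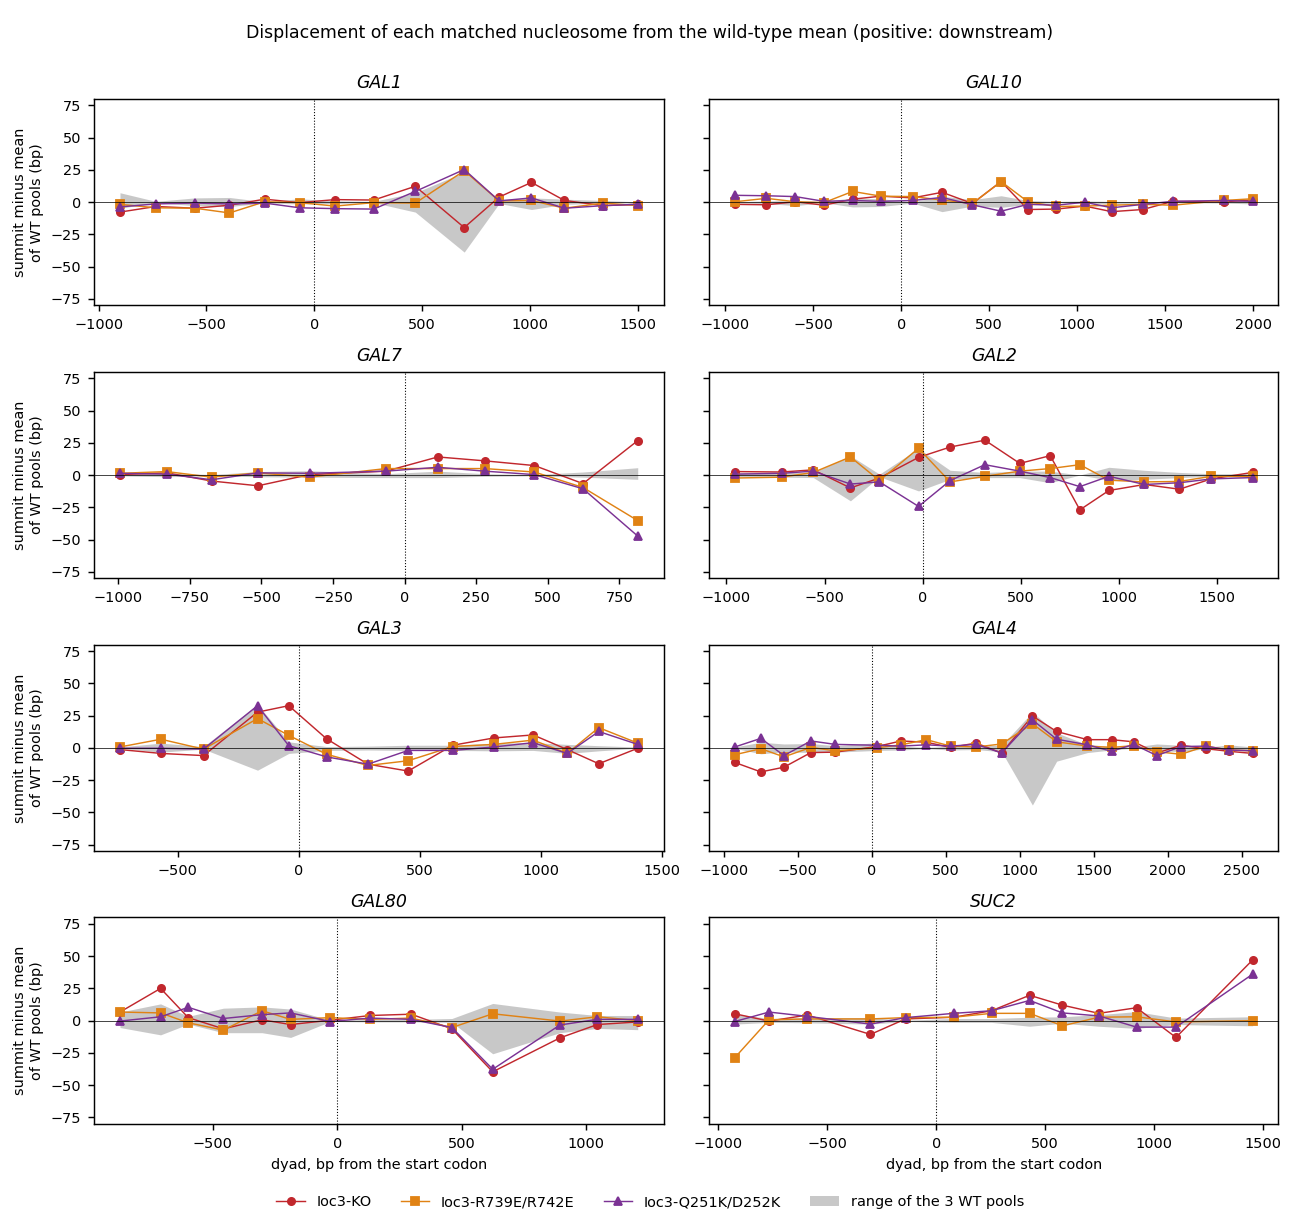
Summit of each matched dyad minus its wild-type mean (bp, positive downstream) against distance from the start codon (bp), with 1 panel per gene and 1 line for each Ioc3 pool; the grey band is the range of the 3 wild-type pools. Most points lie within a few bp of 0, and the excursions of Ioc3-KO include GAL2 at 801 bp (-27.0 bp) and SUC2 at 1453 bp (47.0 bp).

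Taking the 8 genes as a set, the median shift of their 76 coding dyads in Ioc3-KO was 1.83 bp downstream, with 45 of 76 (59.2%) downstream. Over the coding dyads of all genes the median was -0.33 bp, with 46.8% downstream. The promoter dyads of the 8 genes had a median of -0.33 bp in Ioc3-KO with 22 of 46 (47.8%) downstream, against -1 bp and 40.6% over all genes. Dyads between GAL1 and GAL10 count there for both genes, with opposite signs. Over all genes a shared dyad was likewise counted for each gene. The coding medians were 0.50 and 0.50 bp in Ioc3-R739E/R742E and Ioc3-Q251K/D252K, against -0.33 and 0 bp over all genes. By gene, SUC2 had 7 of 8 coding dyads downstream in Ioc3-KO (median 8.83 bp) and GAL7 had 4 of 5 (median 11.0 bp). GAL10, with 6 of 12 downstream, and GAL80, with 2 of 7, did not share this. GAL2 and GAL3 had no majority of coding dyads downstream either. These are counts of dyads along shared fibres of 1 pool and carry no test.

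In peak height, 18 of the 112 dyads were above all 3 wild-type pools in all 3 Ioc3 pools, where 13.5% of all dyads were, and 12 were below, where 8.13% were. Among the promoter dyads 9 of 42 were above, where 19.0% of promoter dyads of all genes were. These shares are near the background. Of the called dyads, SUC2 -141 and GAL2 -368 both belong to the group above.

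Between the Ioc3 genotypes no dyad of the 8 genes was called in any measure by limma. In position the share of all dyads called was 0% in each of the 3 comparisons. At an unadjusted p under 0.05, 15 of the 112 passed for Ioc3-KO minus Ioc3-R739E/R742E (11.5% of all), 17 for Ioc3-KO minus Ioc3-Q251K/D252K (11.5%) and 5 for Ioc3-R739E/R742E minus Ioc3-Q251K/D252K (7.33%). For the same comparisons of height, the shares of all dyads called were 0.00443%, 0.0103% and 0.0133%, and 7, 5 and 3 of the 112 passed unadjusted, against 6.45%, 6.08% and 5.79%. For fuzziness, the shares called were 0%, 0.00296% and 0.0118%, and 7, 7 and 1 passed unadjusted, against 6.94%, 7.82% and 4.91%. Each of these compares 1 pool with 1 pool, so a missed call does not show that the genotypes are alike.

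The fuzziness of coding nucleosomes varied more between the genes than between the groups. GAL10 had the sharpest array, with a median standard deviation of read positions of 26.1, 25.1 and 24.8 bp in the Ioc3 pools and 23.4, 22.9 and 24.8 bp in the wild-type pools. In wild type 6.29% of the 4403 genes with at least 5 matched coding dyads were sharper than GAL10. SUC2 stood at the other end, with 34.3, 35.0 and 34.6 bp in the Ioc3 pools and 34.0, 36.0 and 36.6 bp in the wild-type pools, and 87.7% of genes were sharper. The remaining 6 genes had gene medians between 25.2 and 33.9 bp over all pools.

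Ioc3-KO was the fuzziest pool for 5 of the 8 genes, as it was for the genome. GAL80 had medians of 33.2, 30.7 and 30.1 bp in the Ioc3 pools and 29.8, 27.7 and 28.8 bp in the wild-type pools. The median of all genes was 32.2, 31.3 and 31.0 bp in the Ioc3 pools and 30.6, 30.1 and 30.6 bp in the wild-type pools. Over the coding dyads of the 8 genes the median difference was 1.33 bp in Ioc3-KO, against 1.35 bp over all genes. The difference in Ioc3-KO was thus close to that over all genes. In Ioc3-R739E/R742E it was 0.12 bp and in Ioc3-Q251K/D252K -0.04 bp, against 0.64 and 0.42 bp over all genes.

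**Figure D5:**
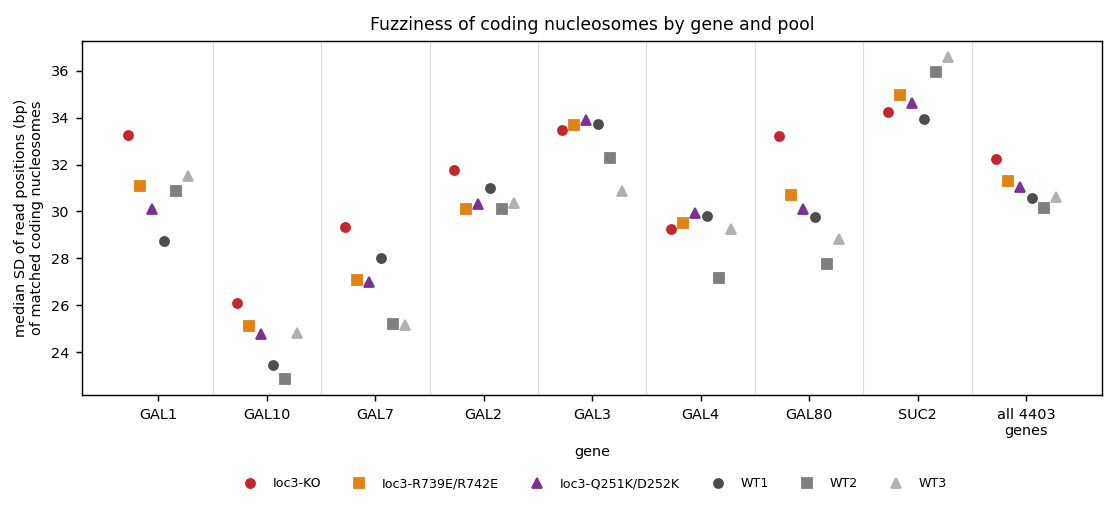
Median fuzziness (standard deviation of read positions, bp) of the coding nucleosomes of each gene, with 1 point per pool, Ioc3 pools listed before wild-type pools, and the median of all 4403 genes beside them. GAL10 lies between 22.9 and 26.1 bp and SUC2 between 34.0 and 36.6 bp in every pool, wider apart than the pools of either gene.

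The widest open stretch of each promoter was compared over 7 promoters, with GAL1 and GAL10 sharing 1. With every entry counted, it was 181, 182 and 183 bp in the Ioc3 pools and 180, 181 and 186 bp in the wild-type pools for GAL1 and GAL10, and 222, 221 and 224 bp against 219, 221 and 222 bp for SUC2. The SUC2 gap lies between the nucleosome at -141 and the first coding one. For GAL7 it was 190, 179 and 267 bp in the Ioc3 pools and 268, 260 and 268 bp in the wild-type pools, since a weak entry near -210 was listed in Ioc3-KO and Ioc3-R739E/R742E alone. Without the lowest 10% of entries the GAL7 gap was 268, 272 and 267 bp in the Ioc3 pools and 268, 260 and 268 bp in the wild-type pools.

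The GAL2 gap, without the lowest 10% of entries, was 335, 335 and 333 bp in the Ioc3 pools and 342, 340 and 342 bp in the wild-type pools. This was the 1 promoter of the 7 whose groups did not overlap on that measure, and how often that occurs among all promoters was not counted. An exact permutation test of 3 pools against 3 gave p = 0.1 (two-sided), the smallest it can give, and 0.7 after Benjamini-Hochberg adjustment over the 7. Its upstream edge was at -555, -557 and -556 in the Ioc3 pools and at -559, -557 and -561 in the wild-type pools, and its downstream edge at -220, -222 and -223 in the Ioc3 pools and at -217, -217 and -219 in the wild-type pools. In wild type 73.7% of 5892 promoters had a narrower gap than GAL2 and 68.6% a narrower one than GAL1-GAL10, beside a median of 286 bp. For SUC2 6.06% did, but its stretch back to the neighbouring coding region is 132 bp. Only the gap next to its start codon was therefore measured, and wider gaps further upstream were not counted.

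No summed level of nucleosomal reads was called. In wild type the promoters ranged from SUC2, above 25.6% of genes, GAL1 (29.5%) and GAL10 (30.6%) to GAL3 (89.5%), and the coding regions from GAL10 (28.1%) to SUC2. Coding reads per kb of SUC2 were 914, 1119 and 1010 in the Ioc3 pools and 999, 1088 and 1263 in the wild-type pools, and 93.7% of 5109 genes of at least 500 bp were lower in wild type. GAL10 had the lowest coding level of the set in wild type, with 871, 867 and 831 reads per kb in the Ioc3 pools and 841, 833 and 829 in the wild-type pools. The median over genes was 902 reads per kb of coding region and 747 reads per kb of the 1000 bp before the start codon.

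By edgeR none of the 8 promoters and none of the 8 coding regions was called in any genotype. The share of all genes called was 0.0167%, 0% and 0.750% for promoters and 0.1%, 0% and 1.04% for coding regions in the 3 Ioc3 pools, and 0.217% and 0.1% over the 3 pools together. At an unadjusted p under 0.05 Ioc3-Q251K/D252K had 1 promoter, that of GAL10 (log2 0.19), and 1 coding region, that of GAL7 (log2 -0.14), beside 10.2% and 9.49% of all genes. Ioc3-KO had none, beside 11.6% of promoters and 12.3% of coding regions, and Ioc3-R739E/R742E had none, beside 6.62% and 5.87%. Over the 3 pools together no promoter passed (12.2% of all) and 1 coding region did, that of GAL4 described above (11.1% of all). By this measure fewer nucleosomes and fewer reads per nucleosome cannot be told apart.

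The genes whose summed reads (1000 bp before the start codon to the stop codon) moved most alike over the 6 pools are given as a description, since each was picked from all genes as the closest. For GAL10 they were RGI1 (Pearson r = 0.997) and RRP42 (0.994), for GAL3 MDR1 (0.996) and PAU9 (0.993), and for GAL2 SLA2 (0.993) and SCD6 (0.986). For GAL4 they were PCS60 (0.993) and YBR219C (0.987), for GAL80 YET3 (0.992) and ATG44 (0.986), and for GAL7 VHS2 (0.986) and LEU4 (0.981). For GAL1 they were GIS1 (0.977) and TED1 (0.97), and for SUC2 HSP26 (0.975) and CUS1 (0.97). All of these sums share the library and its depth.

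Related genes were examined by list. Among 9 other Gal4 targets and galactose-use genes, with 137 matched dyads, 1 dyad was called, in height. That is 0.73% of the list, beside 0.773% of all dyads in Ioc3-Q251K/D252K and 0.35% over the 3 pools, near the background. The share over all dyads in Ioc3-Q251K/D252K includes calls in a raised stretch around ADR1, described below, and was not counted without it. The called dyad lies 153 bp upstream of MTH1, which encodes a regulator of glucose-transporter genes. Its log2 height over the pool median was -0.60, -0.82 and -0.50 in the Ioc3 pools and -1.38, -1.18 and -1.25 in the wild-type pools, without overlap. The difference was 0.63 over the 3 pools (adjusted p = 0.0431) and 0.77 in Ioc3-Q251K/D252K (adjusted p = 0.0486, limma). No position or fuzziness in this list was called.

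Among 16 genes of the glucose repression machinery, with 274 dyads, Ioc3-KO had 2 position calls (0.73% of the list, beside 1.28% of all dyads) and 1 height call (0.365%, beside 0.166%). Ioc3-Q251K/D252K had 3 height calls (1.09%, beside 0.773%). The 2 height calls in HXK2, which encodes a hexokinase that takes part in glucose repression, were upstream of the gene, each called in 1 genotype. At -643 the log2 height over the pool median was 0.08, -0.88 and -0.75 in the Ioc3 pools and -0.95, -1.04 and -0.91 in the wild-type pools, 1.05 higher in Ioc3-KO (adjusted p = 0.0331, limma). The substitution pools also lay above the wild-type pools there. At -421 it was -1.67, -2.21 and -0.87 in the Ioc3 pools and -2.27, -2.24 and -2.07 in the wild-type pools, 1.32 higher in Ioc3-Q251K/D252K (adjusted p = 0.0137, limma), with Ioc3-KO also above the wild-type pools. TUP1, for the corepressor, and SNF5, for a subunit of the SWI/SNF remodelling complex, each had 1 coding nucleosome lower in Ioc3-Q251K/D252K, by log2 differences of -0.83 (adjusted p = 0.0362) and -0.82 (adjusted p = 0.0394, limma). In SWI1, for another SWI/SNF subunit, the summit near 2381 bp was at 2449, 2327 and 2374 bp in the Ioc3 pools and at 2385, 2383 and 2382 bp in the wild-type pools, and the call was for Ioc3-KO (adjusted p = 0.0334, limma). The other position call was in CYC8, for the partner of Tup1, at 947, 949 and 1012 bp in the Ioc3 pools and at 1002, 1006 and 1003 bp in the wild-type pools, and is named after its values were seen.

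Among 21 other glucose-repressed genes, with 327 dyads, Ioc3-KO had 5 position calls in 5 genes (1.53%, beside 1.28% of all dyads). In ACS1, for an acetyl-CoA synthetase, the summit near 1382 bp was at 1442, 1379 and 1380 bp in the Ioc3 pools and at 1383, 1385 and 1381 bp in the wild-type pools (59.0 bp downstream in Ioc3-KO, adjusted p = 0.0340, limma). In SIP4, for an activator of gluconeogenic genes, it was 56.3 bp downstream (adjusted p = 0.0347, limma), and in HXT6 65.3 bp (adjusted p = 0.0334, limma), a transporter gene whose reads cannot be told from those of its near-identical copy HXT7. The other 2 calls, named after their values were seen, were in IMA1, a member of a family of close copies, and at a very weak entry upstream of MLS1. All 16 height calls of this list belonged to ADR1, for the activator of alcohol-use genes, and were higher in Ioc3-Q251K/D252K. Its coding reads were also higher there, by 0.76 on the log2 scale (SE 0.08, adjusted p = 0.0134, edgeR). The 229 dyads within 20 kb of ADR1 had a median log2 height difference of 0.77 in that pool, so the rise was not confined to the gene. Within 20 kb of each of the 8 GAL and SUC2 genes that median lay between -0.01 and 0.05. The shares of all dyads and genes called in Ioc3-Q251K/D252K, given above for height and reads, include the stretch around ADR1. The adjustment of p in that pool covers it as well. Neither was computed without it.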

How the data were processed

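MNase-seq libraries of 12 samples form 6 groups of 2. Trimmomatic, Bowtie2, SAMtools and the build sacCer3 are named in the submitters' processing notes. How nucleosomes were called is not given in the sources used here. As deposited there is 1 list of nucleosomes per group, so the authors pooled replicates. Per the file headers an entry has, in bp, a summit, the mean position of its reads and their standard deviation (here fuzziness). The deposited read count is a whole number of reads per nucleosome, with nearly equal totals, so counts brought to a common depth and equal sequencing cannot be told apart. Peak height is the summit signal of the authors' track per the file headers, on an unstated scale. Columns of samples outside the series numbered 0.

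Summits of all 6 lists were smoothed (Gaussian, SD 20 bp) into dyads at least 100 bp apart, and each list's nearest summit within 70 bp was matched. A dyad can therefore be matched to 1 of several entries. Coding regions came from a RefSeq gene table of the same build, with strands taken from the letter W or C of systematic names. It gives no transcription starts, and whether listed positions count from 0 or 1 is not stated, a shift common to all pools. Position, fuzziness and log2 peak height over the pool median were tested with limma (lmFit, eBayes) on all 67653 matched dyads, with genotype as the factor. Summed reads of all genes were tested with edgeR (quasi-likelihood). A call is a p under 0.05 after Benjamini-Hochberg adjustment over all features. The fit of 6 pools has 2 residual degrees of freedom, and that of 3 pools against 3 has 4. A lone pool was assumed to vary like the wild-type pools. Gaps were compared by an exact permutation test. The scripts were tested on simulated data. Alternatives were the mean read position, a 50 bp limit, a robust fit, no division by the pool median, leaving out low dyads, each wild-type pool left out, and DESeq2 for reads. Depth was about 133 to 139 reads per nucleosome. The reads carry no molecular identifiers, so counting error understates the error of a count.

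Named genes are the 8 genes, up to 4 called genes of each list with the largest change, the 2 genes most alike to each, and IOC3. The genes and lists were chosen with earlier results of these data known. Software was R 4.3.3, limma 3.58.1, edgeR 4.0.16, DESeq2 1.42.0, Python 3.11.15, numpy 2.4.6, pandas 2.3.3, scipy 1.17.1, statsmodels 0.14.6 and matplotlib 3.10.9.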

Additional observations from a re-analysis of the deposited data

How the results depend on the processing

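No paired analysis was possible because each deposited list pools both replicates of its group. Among the 112 dyads, the 1 position call in Ioc3-KO became 0 with a 50 bp matching limit, 0 with the mean read position, 0 to 0 without 1 wild-type pool and 2 with a robust fit. Fuzziness calls in Ioc3-KO, 0 as reported, were 0 to 1 without 1 wild-type pool and 1 without the lowest 25% of dyads. Height calls in Ioc3-KO, 0 as reported, were 1 with the 50 bp limit, 2 with a robust fit, 1 to 3 without 1 wild-type pool and 4 without the lowest 25%. The 2 height calls in Ioc3-Q251K/D252K and the 2 over the 3 Ioc3 pools became 0 and 0 without division by the pool median, and the count over the 3 pools was 0 to 1 without 1 pool. Gap differences (Ioc3 minus wild type) lay within a few bp of 0 or turned on weak entries. For GAL1-GAL10 the difference was -0.333 bp, 0.890 bp with mean positions, 4 bp without the lowest 10%, and -1.5 to 1.5 bp without 1 pool. For GAL2 it was 0.333 bp, -0.391 bp with mean positions, -7 bp without the lowest 10%, and -0.833 to 1.67 bp without 1 pool. For GAL7 it was -53.3 bp, 3.67 bp without the lowest 10% and -56 to -52 bp without 1 pool; for GAL3 -17.3 bp, 0.333 bp and -49.3 to 21.7 bp; for GAL4 -40 bp, 2 bp without the lowest 10% and -64 to -6.5 bp without 1 pool; for GAL80 -2 bp, and -5 to 2.5 bp without 1 pool. The cause was not tested, beyond the removal of weak entries by construction. Depth limits the weak entries most, where 14 to 26 reads stood behind a value at GAL2 -368.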
